A study of Mus musculus with 13 samples.

Results

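The comparison described here sets the ischemic (ipsilateral) cortex against the opposite (contralateral) cortex of mice whose right middle cerebral artery had been blocked. Its members are the libraries that the labels place in the MCAO ipsilateral group (5, replicates 1 to 5) and in the MCAO contralateral group (4, replicates 1, 2, 4 and 5), which is 9 of the 13 libraries in the series. In those libraries 427 genes, 47 miRNA seed families and 1427 miRNAs had enough tags to be tested. The mice were C57BL6, aged 7 to 8 weeks, with no transgene or deletion named in the labels. The artery was occluded with a suture for 35 min under isoflurane, and cortex was dissected after 3 h of recovery. The 4 remaining libraries came from sham mice that were anaesthetised and had the arteries exposed without a suture, and they enter here only as side values and in the estimate of spread. The contralateral cortex is thus a control from operated mice, not from untouched ones. Each replicate number stands for its own surgery day and preparation set, so numbers 1, 2, 4 and 5 pair an ipsilateral with a contralateral library. The labels do not say whether the paired hemispheres came from the same mouse, nor how many mice went into a library.

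Argonaute (AGO) proteins carry miRNAs, short RNAs that pair through their seed, bases 2 to 8, with sites mostly in the 3' untranslated regions (3'UTRs) of mRNAs and lower the output of those mRNAs. In CLIP, ultraviolet light crosslinks AGO to the RNA it touches, AGO is precipitated, and the attached fragments are sequenced, so that both the loaded miRNAs and the bound mRNA sites appear as tags. Occlusion of the middle cerebral artery, followed by its release, is a common model of stroke with reperfusion, in which cortical neurons lose their energy supply, glutamate accumulates outside cells, and stress genes are switched on within hours. The number of AGO tags on a gene depends both on how much of its RNA is present and on how much of that RNA AGO holds, and these cannot be told apart here. In whole cortex, fewer cells of a type and less RNA per cell cannot be told apart either.

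The mature sequences below belong to the miRNAs whose sites or levels carry the results, and the capitals mark the seed. They are RefSeq sequences of the GRCm38.p6 assembly, where 81 of 90 miRNAs named for this comparison (90.0%) had an entry. The miR-29 members share a single seed, as do the miR-30 members. miR-30d-5p is named only.
miR-29a-3p: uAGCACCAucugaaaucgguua
miR-29b-3p: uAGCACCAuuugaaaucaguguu
miR-29c-3p: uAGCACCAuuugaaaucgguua
miR-338-3p: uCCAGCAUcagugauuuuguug
miR-7a-5p: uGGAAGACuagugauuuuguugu
miR-128-3p: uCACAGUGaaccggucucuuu
miR-30a-5p: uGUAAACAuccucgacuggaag

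The following stretches of mm10 sequence are seed matches under 3'UTR peaks of genes described further on. They are written 5' to 3' on the gene's strand with the match in capitals. They were chosen because they held the most tags of their gene for that family, or, in Tet3, because both of its sites had fewer tags in ipsilateral libraries.
Sparc, miR-29 match, chr11:55395458-55395483, minus strand: ggggataaGGTGCTAacatagattta
Slc1a2, miR-29 match, chr2:102788548-102788576, plus strand: gaataaaggccGGTGCTAatagcgggacc
Tet3, miR-29 match, chr6:83364326-83364354, minus strand: agtctaataaaTGGTGCTatggtgtttca
Tet3, second miR-29 match, chr6:83364278-83364306, minus strand: tgtctccctgaGGTGCTAtcaacgtttga
Slc1a2, miR-338 match, chr2:102781768-102781796, plus strand: tgaatggacgcTGCTGGAgaaactacttt
Ids, miR-7 match, chrX:70344162-70344184, minus strand: catgtGTCTTCCtaaaatccctc
Hspa1b, miR-132 match, chr17:34956915-34956943, minus strand: gtaattgcgttGACTGTTaaattttgtat

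Depth was uneven. Exonic tags, meaning tags in peaks that the deposited table places in 3'UTR, coding sequence (CDS), 5'UTR or a noncoding exon of a named gene, numbered 5496 to 26852 in the contralateral libraries and 2681 to 23265 in the ipsilateral ones, with ipsilateral replicates 4 and 5 the shallowest. Ipsilateral replicate 1 stood apart from its group: set against each other ipsilateral library, its gene counts gave a chi-square of 3.61 to 12.35 per degree of freedom, where the others gave 1.57 to 2.01 among themselves. It had 22.1% of its peak tags in 3'UTRs and 41.4% in introns. The other replicate 1 libraries had similar shares, 25.55% and 36.43% in contralateral and 24.03% and 40.3% in sham cortex. Contralateral replicate 1 also stood apart from its group, with a chi-square of 3.11 to 4.41 per degree of freedom. The other contralateral libraries gave 1.813 to 2.175 among themselves. Ipsilateral replicate 1 held no tag of the stress genes Hspa1a and Hspa1b. It also spent 1100 of each 10000 exonic tags on the gene Zcchc4, against 527 in contralateral replicate 1 and at most 42.3 in the other libraries of both groups. For several genes that were higher in ischemic cortex, ipsilateral replicate 1 was the lowest of its group, and values without it are given. These fits drop that lowest library and keep its partner, so their smaller adjusted p-values are no separate support. Cell type markers were as follows, in exonic tags per 10000. The summed neuron markers ranged from 326 to 393 in contralateral and from 201 to 390 in ipsilateral libraries, with 17 of 20 detected and Rbfox3 and Tubb3 at 0. Astrocyte markers ranged from 241 to 304 and from 173 to 291, with 14 of 20 detected and Gfap and Aldh1l1 at 0. Oligodendrocyte lineage markers ranged from 84.1 to 134 and from 67.9 to 87.3, with 7 of 21 detected and Olig1, Olig2, Sox10 and Mog at 0. Of 17 microglia and myeloid markers 16 were at 0. Of 18 vascular markers 5 were detected, with Cldn5 and Pecam1 at 0, and of 9 blood markers 1 was. Their part in the results was not tested.

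Across all genes, AGO tags on the inducible heat shock gene Hspa1b and on the neuronal reticulon gene Rtn1 were higher in ischemic cortex, and those on the synaptic genes Camk2a and Sipa1l1 and the spectrin gene Sptbn1 were lower. These 5 genes of 427 (1.17%), 2 higher (0.468%) and 3 lower (0.703%), passed an adjusted p of 0.05 in edgeR's quasi-likelihood test with the replicate number as a block. Without the block, 0 of 427 (0.0%) passed it and 54 (12.6%) had an unadjusted p under 0.05, 29 higher (6.79%) and 25 lower (5.85%). The smallest adjusted p without the block was 0.092, for 4 of these 5 genes, and DESeq2 without a block called 9 genes (2.11%): Enc1, Pgm2l1, Rtn1 and Snap25 higher (0.937%), and Camk2a, Map2, Psd3, Sipa1l1 and Sptbn1 lower. Changes were balanced, with 216 genes above 0 (50.6%) and 211 below (49.4%), and the median log2 fold change was 0.003. In all 4 pairs of replicate numbers, 32 genes (7.49%) were higher and 57 (13.3%) lower. With the block and 1 library left out at a time, Hspa1b passed in the 5 fits that left out a contralateral library or ipsilateral replicate 1. It fell below the filter on low counts, and was not tested, when ipsilateral replicate 2, 3, 4 or 5 was left out, so these fits do not measure how stable the call is. Camk2a passed only without contralateral replicate 4, ipsilateral replicate 1 or ipsilateral replicate 4, at an adjusted p of 0.0281 to 0.0464. Rtn1 (adjusted p = 0.00498), Sipa1l1 (0.00887) and Sptbn1 (0.0479) passed only without ipsilateral replicate 1, so that without any one of the other 8 libraries their calls were lost, at adjusted p-values up to 0.341.

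**Figure D1:**
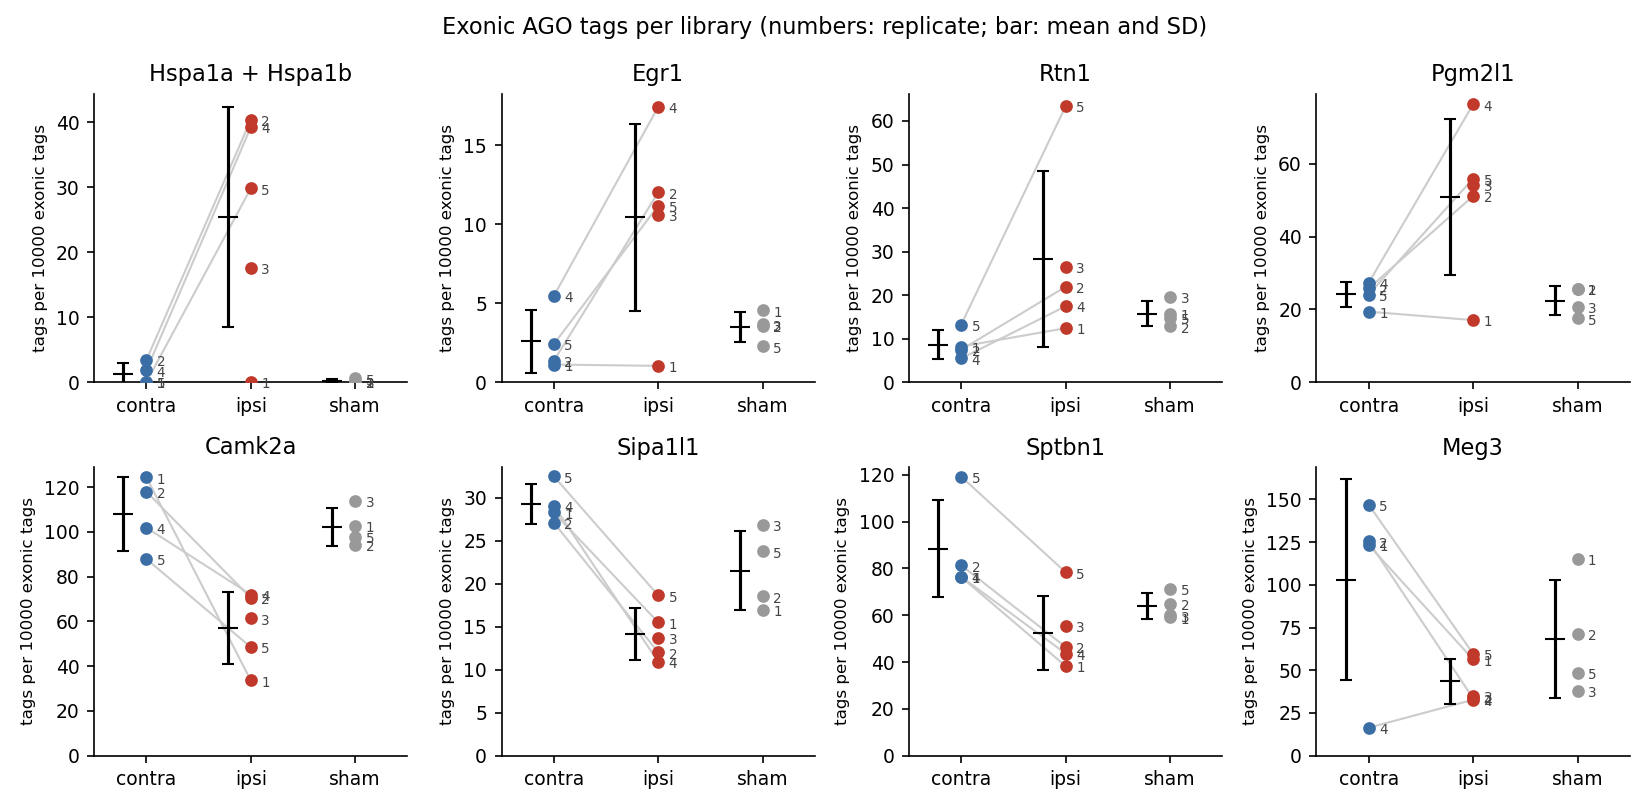
Exonic AGO tags per 10000 exonic tags of the library for 8 genes, in contralateral (blue), ipsilateral (red) and sham (grey) cortex. Each point is a library numbered by replicate, bars show mean and SD, and lines join libraries of the same number. Ipsilateral replicate 1 lies at 0 for Hspa1a plus Hspa1b and below its partner for Egr1 and Pgm2l1, while all 5 ipsilateral values of Camk2a and Sipa1l1 lie below all 4 contralateral ones.

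Hspa1b encodes an inducible HSP70 chaperone, which binds unfolded proteins under stress. Its exonic tags per 10000 were 0, 2.71, 1.82 and 0 in contralateral replicates 1, 2, 4 and 5, and 0, 31.4, 14.1, 34.9 and 22.4 in ipsilateral replicates 1 to 5. All ipsilateral libraries but the first were above every contralateral one, and sham libraries lay between 0 and 0.566. The means were 1.13 ± 1.36 (SD, n = 4) and 20.6 ± 14.1 (SD, n = 5), resting on 5 and 127 tags. The fit gave a log2 change of 4.15 (SE 1.01, edgeR adjusted p = 0.092) and 3.94 (SE 0.622, adjusted p = 0.00182) with the block. Without ipsilateral replicate 1 and without the block, it was 4.55 with an adjusted p of 1.96e-04. All 6 exonic peaks of Hspa1b had a higher pooled ipsilateral share. Most of them had 0 contralateral and 0 sham tags, so they were listed only through ipsilateral tags and their direction was fixed in advance. The gene itself passed the filter on low counts only through ipsilateral replicates 2 to 5. Its direction was therefore also fixed once it was tested, and its p-values carry that limit. Peak counts here and for the genes below show how a gene's summed change is spread over its peaks. They are no separate support for it, and the share over all exonic peaks was not computed.

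The near-identical copy Hspa1a had 1 contralateral and 33 ipsilateral tags, too few to be tested, and tags in sequence common to both copies may have been assigned to either. Summed over both, ipsilateral libraries 2 to 5 had 40.4, 17.6, 39.3 and 29.8 tags per 10000, and contralateral libraries had 0, 3.39, 1.82 and 0. Ipsilateral replicate 1 had 0 of 19345 exonic tags, which allows up to 1.55 per 10000, well below its group. The 3'UTR peak of Hspa1b that holds the miR-132 match printed above had 0, 4, 1 and 0 tags in contralateral libraries and 0, 24, 10, 7 and 0 in ipsilateral ones. miR-132 is known for its induction by neuronal activity, and its sites as a family did not pass the threshold.

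Egr1, an immediate early transcription factor that neurons switch on after strong stimulation, had 1.12, 1.36, 5.46 and 2.41 tags per 10000 in contralateral replicates 1, 2, 4 and 5, and 1.03, 12.04, 10.6, 17.5 and 11.2 in ipsilateral replicates 1 to 5. Again every ipsilateral library but the first was above the contralateral ones, and sham libraries had 2.26 to 4.55. The log2 fold change of 2.19 (SE 0.642) missed the threshold, with an adjusted p of 0.139 without and 0.162 with the block. It was 2.56 with an adjusted p of 0.00531 when ipsilateral replicate 1 was left out. The value rests on 10 and 65 tags.

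Rtn1, a reticulon that shapes the endoplasmic reticulum of neurons, had 8.19, 7.46, 5.46 and 13.3 tags per 10000 in contralateral libraries and 12.4, 21.9, 26.5, 17.5 and 63.4 in ipsilateral ones. The groups overlapped only through contralateral replicate 5 and ipsilateral replicate 1, and each ipsilateral library exceeded its partner in 4 of 4 pairs. Sham libraries had 12.8 to 19.6, above 3 of the 4 contralateral libraries. In the fit across genes the change was log2 1.51 (SE 0.376, adjusted p = 0.092), and 1.40 (SE 0.344, adjusted p = 0.0452) with the block. Of its 12 exonic peaks 11 had a higher pooled share.

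Other higher genes passed no adjusted threshold with all libraries in edgeR. Pgm2l1, which makes the glucose 1,6-bisphosphate cofactor in brain, had 19.4, 25.8, 27.3 and 24.1 in contralateral libraries and 17.1, 51.2, 54.3, 76.4 and 56.0 in ipsilateral ones. Its log2 value was 1.02 (SE 0.288, adjusted p = 0.139), with 37 of its 44 exonic peaks higher. Without ipsilateral replicate 1 it was 1.25 with an adjusted p of 0.00165. Snap25, a SNARE protein of vesicle fusion, had 22.7, 50.8, 25.5 and 33.7 in contralateral libraries and 24.3, 81.7, 108, 63.3 and 41.0 in ipsilateral ones. Each exceeded its partner in 4 of 4 pairs (log2 0.95, SE 0.336, adjusted p = 0.265, and 1.20 with an adjusted p of 0.00922 without ipsilateral replicate 1). Further higher genes among the 10 with the smallest p were Map2k4 (log2 1.27, a kinase upstream of JNK), Enc1 (1.21, an actin-binding protein of neurons), Ywhaz (1.21, a 14-3-3 protein) and Marcks (1.40, a substrate of protein kinase C). Their adjusted p-values lay between 0.139 and 0.247. Without ipsilateral replicate 1 and without the block, Enc1 (edgeR adjusted p = 0.00165), Map2k4 (0.016) and Ywhaz (0.0256) passed. Marcks passed in no fit that left out 1 library.

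Camk2a encodes the alpha subunit of the calcium/calmodulin-dependent kinase II of synapses, and its mRNA travels into dendrites. It had 124, 118, 102 and 87.9 exonic tags per 10000 in contralateral replicates 1, 2, 4 and 5, and 33.6, 70.5, 61.3, 72.0 and 48.5 in ipsilateral replicates 1 to 5. No values overlapped, and sham libraries (94.2 to 114) lay beside the contralateral ones. The means were 108 ± 16.4 (SD, n = 4) and 57.2 ± 16.2 (SD, n = 5), from 637 and 414 tags. The fitted change was log2 -0.94 (SE 0.232, edgeR adjusted p = 0.092), and -1.02 (SE 0.223, adjusted p = 0.0363) with the block. All 25 exonic peaks were lower, 15 of them in the 3'UTR and 9 in the CDS, so the lower tags were spread along the transcript.

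Sipa1l1, a Rap GTPase-activating protein of the postsynaptic density, had 28.3, 27.1, 29.1 and 32.5 tags per 10000 in contralateral libraries and 15.5, 12.04, 13.7, 10.9 and 18.7 in ipsilateral ones. These groups did not overlap either, and sham libraries spread from 17.0 to 26.9, between the means of both. That difference was log2 -1.05 (SE 0.234, adjusted p = 0.092), and -1.10 (SE 0.262, adjusted p = 0.0452) with the block. Most of its tags (77.9%) lay in the CDS, and 26 of 31 exonic peaks were lower.

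Sptbn1 encodes beta-II spectrin of the membrane skeleton of axons and dendrites. It had 76.3, 81.3, 76.4 and 119 tags per 10000 in contralateral libraries and 38.3, 46.4, 55.6, 43.6 and 78.3 in ipsilateral ones. Each was below its partner in 4 of 4 pairs, although ipsilateral replicate 5 lay above 2 contralateral libraries. Sham libraries had 59.1 to 71.3, below every contralateral library and within the ipsilateral range. The change came to log2 -0.80 (SE 0.205, adjusted p = 0.099), and -0.81 (SE 0.196, adjusted p = 0.0452) with the block. Its tags were mainly in the CDS (81.2%), and with 3'UTR peaks alone the log2 value was -0.24 (adjusted p = 0.798).

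No overlap between groups was seen for 9 lower genes (2.11% of 427) and 3 higher ones (0.703%). Besides Camk2a and Sipa1l1 the lower ones included Ank2, Psd3 and Map2. Ank2, the ankyrin-B that ties spectrin to membrane proteins, had 67.8, 61.0, 60.0 and 69.9 tags per 10000 against 48.6, 35.3, 41.5, 43.6 and 41.0 (log2 -0.61, SE 0.201, adjusted p = 0.233). Map2, a microtubule protein of dendrites, had 128.5, 116.6, 125.5 and 106 against 50.7, 96.7, 86.0, 78.5 and 97.0 (log2 -0.58, SE 0.213, adjusted p = 0.283). Psd3, an exchange factor for the small GTPase Arf6, had 61.1, 73.9, 67.3 and 74.7 against 45.5, 45.1, 37.1, 52.4 and 48.5 (log2 -0.60, SE 0.186, adjusted p = 0.182). For Psd3 the sham libraries, at 33.5 to 47.0, lay with the ipsilateral and not with the contralateral ones.

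Meg3, a maternally expressed long noncoding RNA, had 123, 125, 16.4 and 147 tags per 10000 in contralateral libraries and 56.4, 33.5, 34.9, 32.7 and 59.7 in ipsilateral ones. Contralateral replicate 4 lay below all ipsilateral libraries and the other 3 above all of them, so the pairs split 3 to 1. The log2 value was -1.27 (SE 0.454, adjusted p = 0.266), with -1.14 and an adjusted p of 0.0897 with the block. Slc1a2, the main astrocytic glutamate transporter, had 115, 145, 133 and 208 against 66.7, 141, 147, 116 and 123. It was lower in 4 of 4 pairs, but the groups overlapped broadly and the log2 value was -0.35 (SE 0.247, adjusted p = 0.506). The other lower genes with the smallest p, none of which passed, were Eef2 (log2 -1.14), the elongation factor 2 of translation, Cnksr2 (-0.65), a postsynaptic scaffold, and Tjp1 (-1.42), a tight junction protein.

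**Figure D2:**
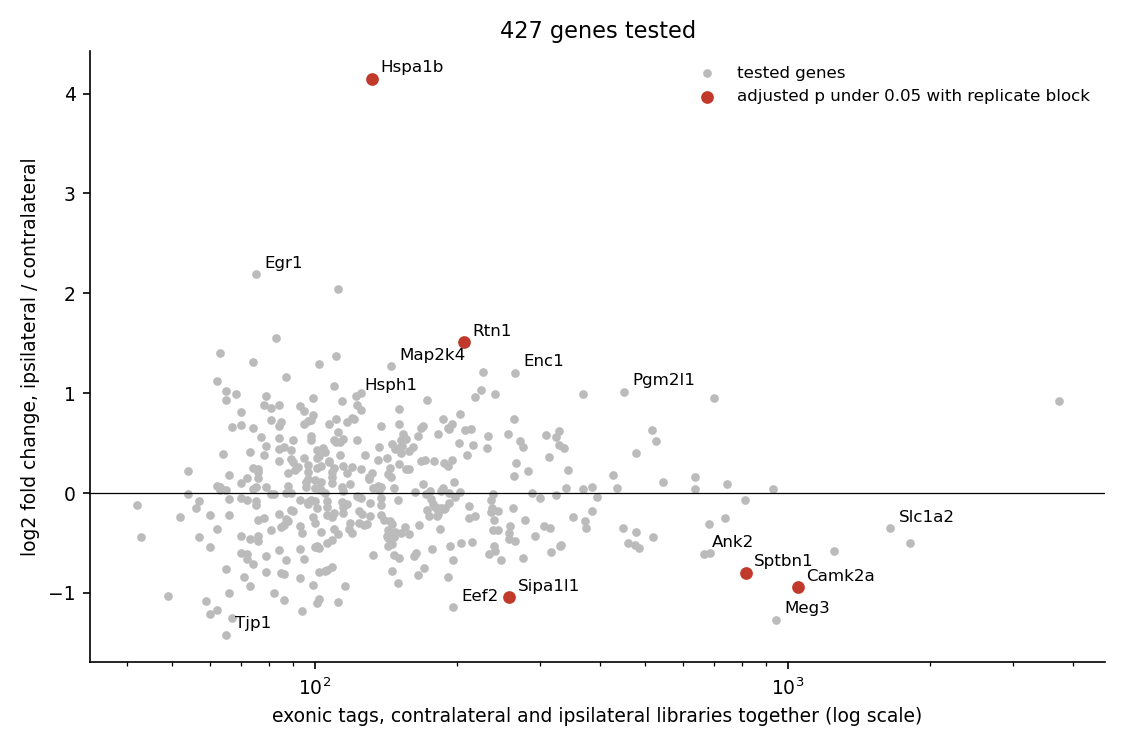
Log2 fold change, ipsilateral over contralateral, of 427 genes against their exonic tags in both groups together (log scale). Red points are the 5 genes with an adjusted p under 0.05 with the replicate block, Hspa1b and Rtn1 above 0 and Camk2a, Sipa1l1 and Sptbn1 below it.

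Grouped by role, the tested chaperone, immediate early, ATPase and GABA genes lay mostly above 0 and the glutamate receptors and oligodendrocyte genes below it. Log2 values, medians and counts above or below 0 are over the tested members of each list in the fit across all genes, where 50.6% lay above 0 and the median was 0.003. Summed and pooled shares are over all listed genes with exonic tags. No background over all genes is given for counts by pooled share or for sums without overlap. No list holds a gene past the adjusted threshold without the block. Of 26 inducible heat shock and chaperone genes 4 were tested, 3 above 0, with a median of 0.83: Hspa1b, Hsph1 (0.97, an HSP70 partner) and Canx (0.70, the chaperone calnexin of the endoplasmic reticulum) above, and Hsp90ab1 (-0.08) below. Their summed share over 14 detected genes was 33.8 ± 11.6 (SD, n = 4) and 64.0 ± 19.6 per 10000 (SD, n = 5), and was higher in 4 of 4 pairs. Hspa1a and Hspa1b made up most of that difference: without them the sum was 26.1, 27.1, 49.1 and 27.7 in contralateral and 34.6, 41.3, 37.9, 41.5 and 37.3 in ipsilateral libraries, with contralateral replicate 4 above all others. Of the 14, 8 had a higher and 6 a lower pooled share. Of 35 immediate early genes 3 were tested, all above 0 (Egr1 2.19, Nr4a1 0.68 and Homer1 0.32), and 15 of 16 with tags had a higher pooled share. Their summed share was 31.7, 39.99, 36.4 and 27.7 in contralateral libraries and 29.0, 97.1, 64.4, 61.1 and 89.5 in ipsilateral ones, where the first was again the lowest of its group. Sham libraries had 39.1 to 52.1, most of them above every contralateral library. For Nr4a1 the sham mean, 8.724 per 10000, was above both the contralateral (3.65) and the ipsilateral mean (5.315).

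Glutamate receptors bind the main excitatory transmitter. Of 20 listed, 4 were tested and 4 lay below 0, with a median of -0.53: the AMPA receptor subunits Gria2 (-0.52) and Gria3 (-0.59), the NMDA receptor subunit Grin2b (-0.36) and the metabotropic receptor Grm5 (-0.54). The summed share of the 10 detected was 81.9, 90.2, 104 and 122 in contralateral libraries and 50.7, 78.7, 73.2, 61.1 and 78.3 in ipsilateral ones, without overlap, and 8 of the 10 had a lower pooled share. For genes of inhibitory GABA signalling, 5 of 6 tested lay above 0 (median 0.43), with the receptor subunit gene Gabrb2 at 0.48. Their summed share was 83.1 ± 13.6 (SD, n = 4) and 115 ± 16.9 (SD, n = 5), higher in 4 of 4 pairs, while the pooled share was higher for 8 of 15 genes with tags and lower for 7. In the list of glutamate transport and metabolism 2 of 4 lay above 0, the vesicular transporter Slc17a7 (0.65) and the transaminase Got1 (0.73). Slc1a2 and the glutamine synthetase Glul (-0.50) of astrocytes lay below.

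Synaptic vesicle release genes had 13 of 17 tested members above 0 (median 0.32), and 21 of 28 with tags had a higher pooled share. The sodium, potassium and calcium pumps had 7 of 7 above 0 (median 0.45), including Atp1b1 (0.52), the beta subunit of the sodium pump that restores ion gradients. Their summed share was 206 ± 19.9 (SD, n = 4) and 253 ± 24.99 (SD, n = 5), with 11 of 14 higher by pooled share. In CaMKII and postsynaptic signalling 10 of 16 lay above 0 (median 0.08), although Camk2a and Sipa1l1 fell with the block, and by pooled share 17 of 31 were higher. The kinase inhibitor Camk2n1 (0.04) lay near 0. Cytoskeletal and axonal genes split 7 above to 13 below (median -0.11), and 12 to 14 by pooled share. Their summed share was 646 to 723 in contralateral and 452 to 637 in ipsilateral libraries, also without overlap. Translation and RNA decay genes split 3 to 4, and channels 2 to 3. Of 4 tested genes of the miRNA pathway 3 lay below 0, among them the AGO partner Tnrc6b (-0.61), and Ago1 to Ago4 had no tag. Apoptosis and inflammatory genes had no member with enough tags.

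Among oligodendrocyte lineage genes 4 of 4 tested lay below 0 (median -0.45), among them the myelin genes Mobp (-0.71) and Mbp (-0.27) and the RNA-binding Qk (-0.39), and 7 of 7 with tags had a lower pooled share. The summed share of the list was 93.9, 84.1, 94.6 and 134 against 70.8, 67.9, 71.9, 87.3 and 82.1, lower in 4 of 4 pairs with ipsilateral replicate 4 above 1 contralateral library. Astrocyte genes split 2 above to 3 below and neuron genes 6 to 4.

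**Figure D3:**
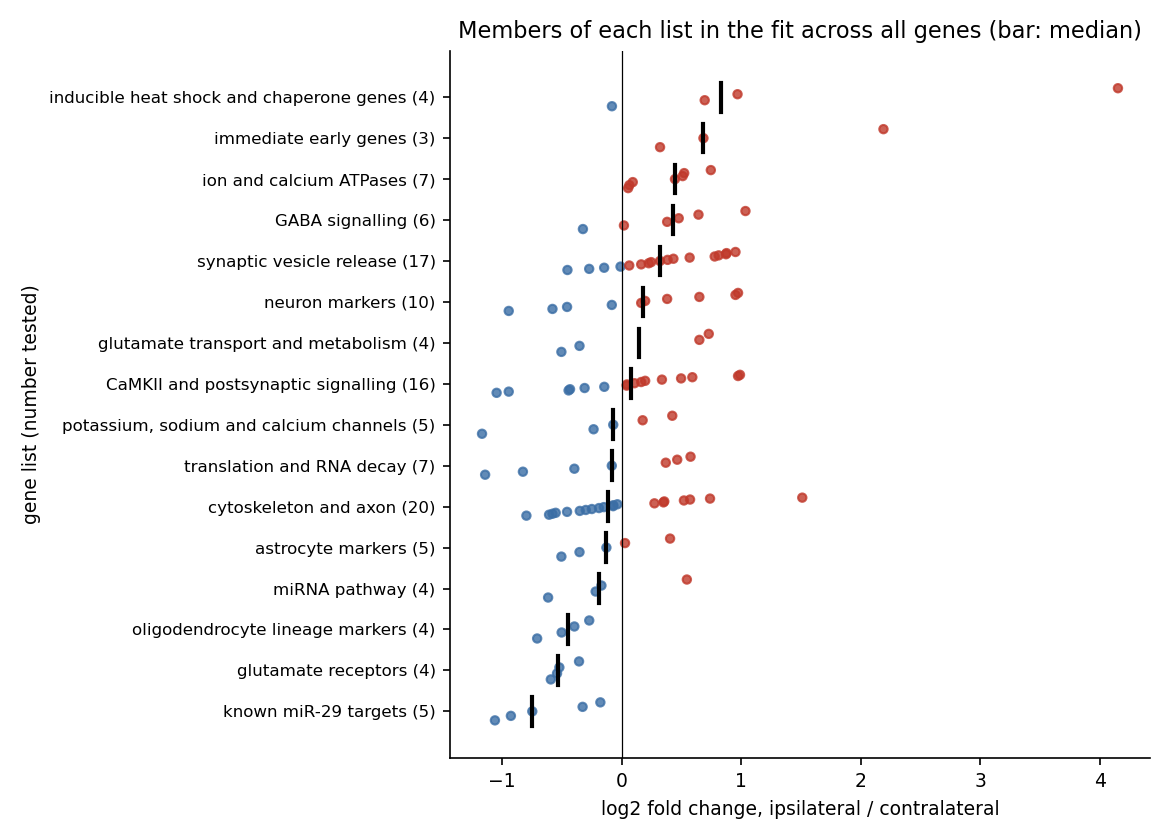
Log2 fold change, ipsilateral over contralateral, of the tested members of each gene list, one point per gene, red above 0 and blue below it, with a bar at the median. Medians run from 0.83 for heat shock and chaperone genes to -0.75 for known miR-29 targets, and most lists hold few tested members.

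To follow the miRNA side, tags were summed over the 3'UTR peaks that hold a seed match of each family, as a percentage of all 3'UTR tags. A match was the complement of bases 2 to 8, or of bases 2 to 7 followed by A, on the gene's strand only. For miR-29 these are TGGTGCT and GGTGCTA, which occurred in 1.64% of the 3'UTR peaks searched, for miR-7 GTCTTCC and TCTTCCA (1.14%), and for miR-338 ATGCTGG and TGCTGGA (1.06%). Peaks may hold matches of several families. Tags in peaks with miR-29 matches fell in the ischemic cortex, and miR-29 was the 1 family of 47 (2.13%) past an adjusted p of 0.05. With the replicate block 3 families (6.38%) passed, all lower: miR-29, miR-338 and miR-7. Of all 47, 18 (38.3%) lay above 0 and 29 (61.7%) below, the median was -0.08, and 7 (14.9%) were lower in 4 of 4 pairs.

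Tags in the 110 peaks with miR-29 matches, in 105 genes, made up 2.13%, 2.00%, 2.35% and 2.23% of 3'UTR tags in contralateral replicates 1, 2, 4 and 5. They made up 1.63%, 1.66%, 1.50%, 1.56% and 1.70% in ipsilateral replicates 1 to 5. All 5 ipsilateral values were below all 4 contralateral ones, ipsilateral replicate 1 among them, and sham libraries had 2.10% to 2.36%. Fitted over all families the change was log2 -0.43 (SE 0.104, edgeR adjusted p = 0.0203), and -0.39 (SE 0.101, adjusted p = 0.0466) with the block. The call was lost with a TMM scaling factor (-0.33, adjusted p = 0.321), when all exonic peaks were used (-0.27, adjusted p = 0.106), and with matches to bases 2 to 8 followed by A only (-0.42, adjusted p = 0.292). It was also lost without contralateral replicate 1 (adjusted p = 0.0654), 4 (0.0844) or 5 (0.0823) or ipsilateral replicate 3 (0.113), with log2 values of -0.47 to -0.40 over all 9 such fits.

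The family's tags were spread over many genes. The matrix protein gene Sparc gave the most, 18.5%, and its site printed above had 41.3 pooled contralateral and 28.3 ipsilateral tags per 10000 3'UTR tags. Its per-library tags were 88, 14, 16 and 29 in contralateral and 72, 22, 46, 1 and 7 in ipsilateral libraries, so it leaned on replicate 1 of both groups. The 2 sites of Tet3, an enzyme that oxidises methylcytosine, together had 8.15 and 2.29 per 10000 (29 and 12 tags), those of Purg 6.47 and 3.06, and that of Slc1a2 6.47 and 4.59. The site of the kinase Gsk3b was closer, at 3.94 and 3.25. Atp1b1 went the other way, with 2.53 and 4.78. Among genes with at least 10 tags in miR-29 peaks, 32 of 50 (64.0%) were lower, beside 700 of 1400 (50.0%) for genes over all 3'UTR peaks. That share was not particular to miR-29. Families that were not called had 62.8% (miR-26), 61.8% (miR-137), 60.4% (miR-129) and 60.0% (miR-379, a family above 0). Others had less, down to 36.8% for miR-146. The count also uses the tags by which the family was called, so it is no separate support. In a list of known miR-29 targets, 5 of 5 tested genes lay below 0 over their exonic tags (median -0.75), among them Dnmt3a (-1.06), Tet3 (-0.93), Pik3r1 (-0.75) and Sparc (-0.18), and none passed the adjusted threshold. By pooled share 12 of the 18 with tags were lower and 6 higher. Dnmt3a varied widely among contralateral libraries (15.0 ± 14.5 per 10000, SD, n = 4). With 1 library left out and no block, its log2 value ran from -1.44 to -0.33. The exonic sums of these targets share tags with the family's.

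miR-338 sites made up 0.988%, 1.22%, 1.30% and 0.997% of 3'UTR tags in contralateral libraries and 0.592%, 0.947%, 1.02%, 0.955% and 0.413% in ipsilateral ones. The groups overlapped, and the log2 value was -0.42 (SE 0.188, adjusted p = 0.292), or -0.49 (SE 0.145, adjusted p = 0.0466) with the block. A single Slc1a2 site gave 18.5% of these tags, at 20.8 and 15.3 per 10000. A further part came from Dnmt3a, a DNA methyltransferase, at 6.75 and 1.15. miR-7 sites made up 1.15%, 1.68%, 2.07% and 1.03% against 0.838%, 1.38%, 1.27%, 1.15% and 0.722%. Only by pairs did they separate, with a log2 value of -0.36 (SE 0.208, adjusted p = 0.53) and -0.43 (SE 0.126, adjusted p = 0.0466) with the block. The Ids site gave 33.8% of the miR-7 tags (48.4 and 37.7 per 10000), and 11 of 22 genes were lower. With the block and 1 library left out, miR-29, miR-338 and miR-7 each passed only without contralateral replicate 5 or ipsilateral replicate 3. In the fit with the block that left out replicate 1 of all groups, no family passed.

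Besides miR-29, miR-128 was the 1 family without overlap, which makes 2 of 47 or 4.26% (2.60 ± 0.191% and 2.20 ± 0.110%, SD, n = 4 and n = 5), with a log2 value of -0.24 and an adjusted p of 0.338. Its match ACTGTGA is also a miR-27 match, so peaks that hold it count for both families. The miR-27 family stood at log2 0.04. The families miR-137, miR-9-5p, miR-126 and let-7 also had an unadjusted p under 0.05, all lower, which with miR-29 and miR-338 makes 6 (12.8%). Of the families above 0, miR-379 (0.31) and miR-146 (0.29) were highest and passed no threshold. In miR-146 the 4 Slc1a2 sites gave 26.4% of tags, at 14.3 and 18.9 per 10000, the reverse of the order at the gene's miR-29 and miR-338 sites.

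**Figure D4:**
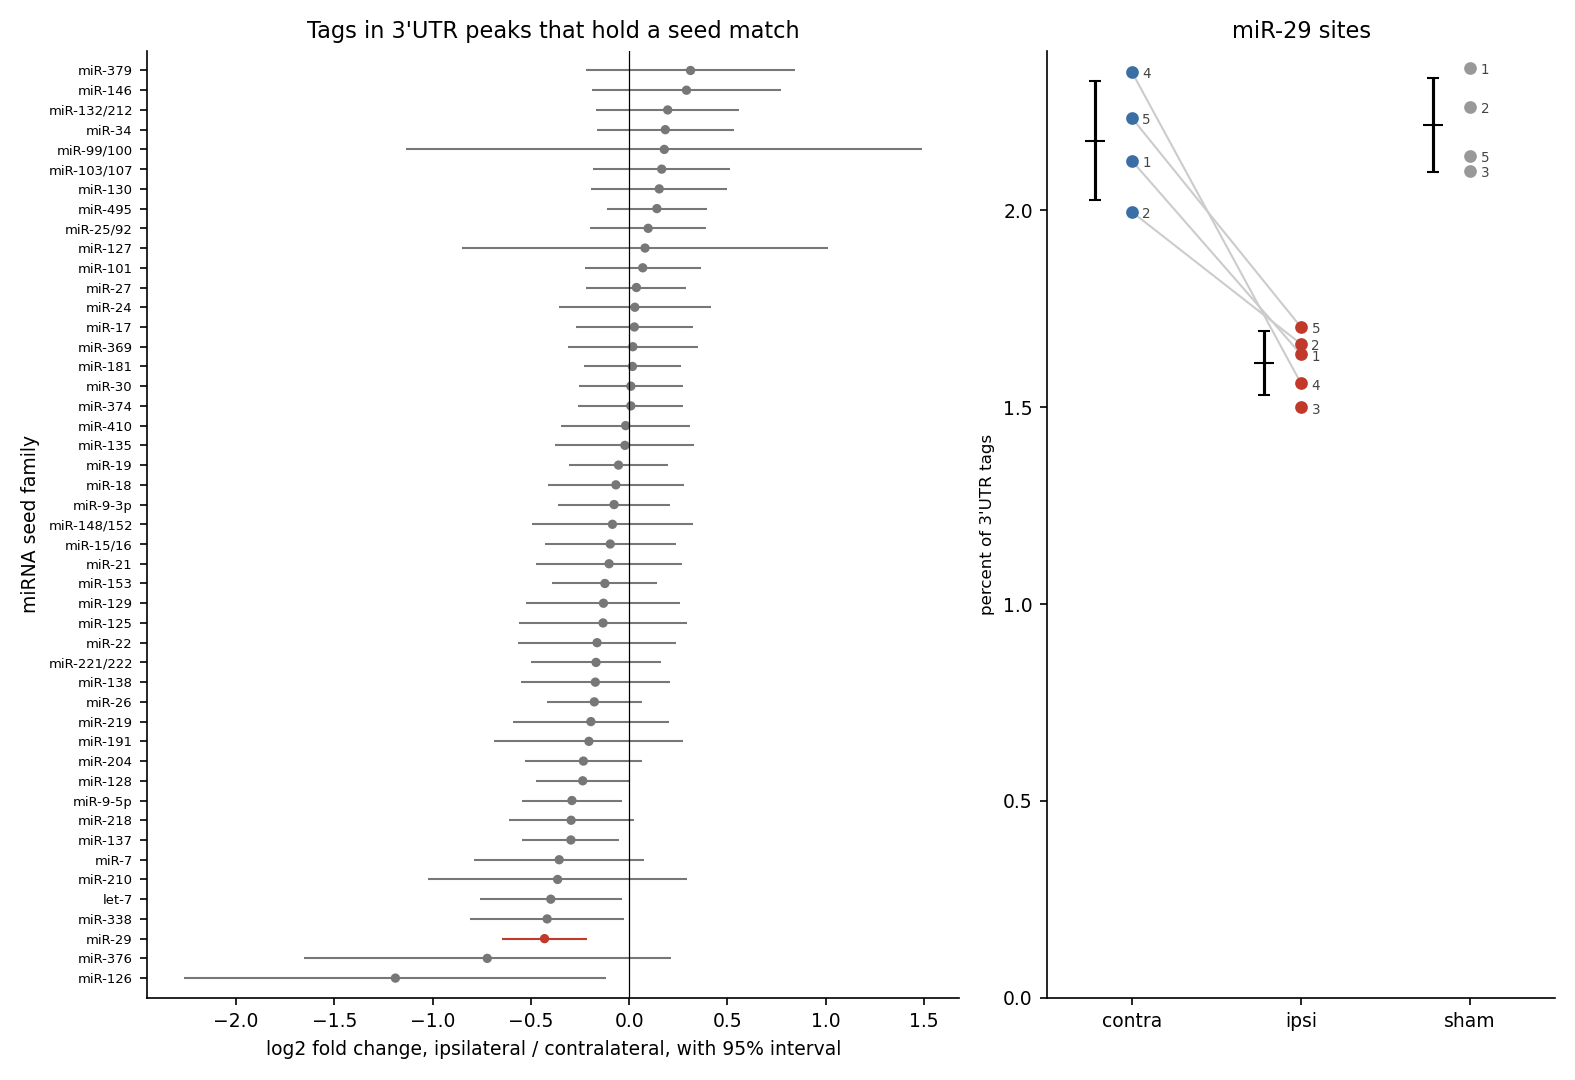
Left, log2 fold change with 95% interval of 3'UTR tags at seed matches for 47 miRNA families, with miR-29 in red. Right, the percentage of 3'UTR tags at miR-29 matches in each library, numbered by replicate, with mean and SD, where the 5 ipsilateral points lie from 1.50% to 1.70% and the 4 contralateral ones from 2.00% to 2.35%.

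The miRNAs themselves gave no call: 0 of 1427 (0.0%) passed an adjusted p of 0.05 in edgeR, with or without the block, or in DESeq2. At an unadjusted p under 0.05 there were 52 (3.64%) in edgeR, 46 (3.22%) with the block and 29 (2.03%) in DESeq2. Split by sign, 703 miRNAs (49.3%) lay above 0 and 724 (50.7%) below. The median miRNA had 172 tags over the 13 libraries, with quartiles of 117 and 252, and the 10 with the most tags held 8.88% of all. Of all miRNAs, 211 had at least 2 times and 55 at least 4 times the median. The table is thus flat, and whether its common level is background was not tested.

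Among the 5 higher miRNAs with the smallest p, miR-30d-5p had the most tags and the largest fold change. It had 25.6, 32.2, 35.1 and 10.9 tags per 10000 miRNA tags in contralateral libraries and 52.9, 40.4, 46.0, 80.9 and 138 in ipsilateral ones, without overlap, as in 7 higher miRNAs of 1427 or 0.491% (log2 1.34, SE 0.448, edgeR unadjusted p = 0.00462, adjusted p = 0.999). Sham libraries had 15.2 to 59.8, which spans much of both groups. Its relative miR-30a-5p had 14.1, 16.8, 21.4 and 3.42 against 18.7, 21.7, 27.9, 46.7 and 44.1, higher in 4 of 4 pairs, as were 61 miRNAs (4.27%) (log2 1.04, SE 0.398, adjusted p = 0.999). Both were highest in the shallowest ipsilateral libraries, 4 and 5, and lowest in contralateral replicate 5. The 6 tested miR-30 members summed to 71.7 ± 25.3 (SD, n = 4) and 136 ± 48.9 (SD, n = 5), with 4 above 0 and 2 below. Tags at miR-30 matches in 3'UTRs stood at log2 0.01 (SE 0.128).

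The other higher miRNAs with the smallest p were miR-505-5p (log2 0.94, with the smallest edgeR unadjusted p of 0.00128), miR-6396 (0.79) and miR-100-3p (0.77). The lower ones were miR-8097 (-0.95), miR-6991-5p (-0.94), miR-3968 (-0.85), miR-470-5p (-0.79) and miR-7036b-5p (-0.70). Of these, miR-3968 (5.91 and 2.48 per 10000) and miR-470-5p (5.97 and 3.51) had no overlap between groups, in 8 such lower miRNAs of 1427 (0.561%). miR-128-3p, a neuronal miRNA, had 4.37 and 1.86 per 10000 from 43 and 24 tags (log2 -0.96, unadjusted p = 0.0279) and was lower in 4 of 4 pairs, as were 109 miRNAs (7.64%).

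The miRNAs whose sites moved did not move detectably at this depth. The log2 values of miR-29a-3p, miR-29b-3p and miR-29c-3p were -0.33 (SE 0.378), 0.09 (SE 0.351) and -0.21 (SE 0.518), and their family summed to 34.3 ± 15.4 (SD, n = 4) and 38.5 ± 21.9 per 10000 (SD, n = 5). miR-338-3p stood at -0.41 (SE 0.432) and miR-7a-5p at -0.34 (SE 0.297). Among the miRNAs with the most tags, miR-26a-5p had 103 ± 59.2 (SD, n = 4) and 160 ± 68.5 (SD, n = 5), and neuronal miR-124-3p had 102 ± 57.6 and 127 ± 30.1. The standard errors leave room for changes of the size seen at the sites.

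**Figure D5:**
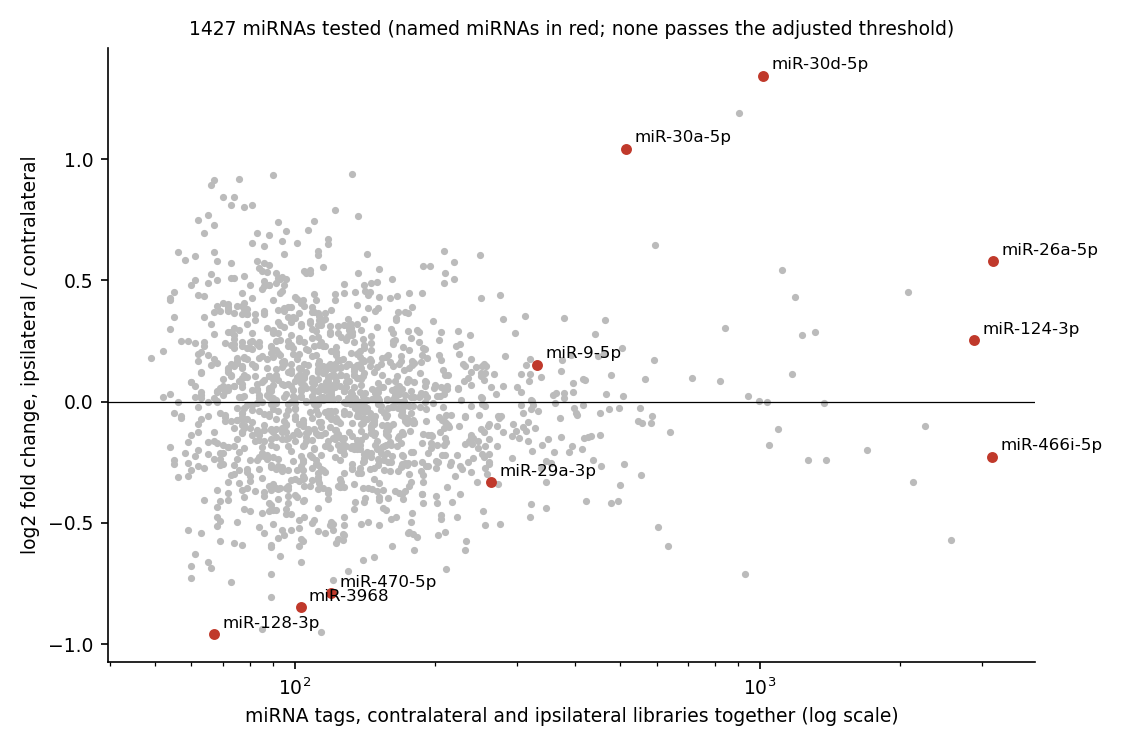
Log2 fold change, ipsilateral over contralateral, of 1427 miRNAs against their tags in both groups together (log scale), with 10 miRNAs in red. miR-30d-5p (1.34) and miR-30a-5p (1.04) lie at the top, miR-128-3p (-0.96) at the bottom, and most points have few tags.

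The shares of peak tags by region did not separate the groups. 3'UTRs held 39.2 ± 10.3% (SD, n = 4) and 42.2 ± 11.5% (SD, n = 5), with an exact permutation p of 0.667. The CDS held 15.6 ± 3.43% and 12.6 ± 4.09% (exact permutation p = 0.333). The smallest p that 4 libraries against 5 allow is 0.0159, and over 8 regions the adjusted p was at least 0.730.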

How the data were processed

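AGO CLIP libraries of mouse cortex were compared: 5 ipsilateral, 4 contralateral, with 4 sham libraries in the same fit. The authors deposited whole-number counts of tags per peak and per miRNA, not normalized. Alignment used Novoalign on mm10, per the submitters' processing notes. For the peak caller, duplicate collapsing and strand, the method is not given in the sources used here. The deposited miRNA counts start at 50 tags in total and the peaks at 3.

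Exonic peaks (11467 of 18284, in 3328 genes) were summed per gene. Overlapping peaks can share tags. Genes and miRNAs were filtered (filterByExpr), TMM-scaled and fitted with edgeR's quasi-likelihood test (edgeR 4.0.16, R 4.3.3), with Benjamini-Hochberg adjustment. The 427 genes tested held 63.3% of exonic tags, and the 1427 miRNAs tested 94.8% of miRNA tags. Families used the 3'UTR tags as library size, unscaled and unfiltered, with GENCODE M21 sequence of GRCm38, the mm10 assembly. Deposited starts were read as counted from 0. DESeq2 1.42.0 was an alternative, and SciPy 1.17.1 gave exact permutation tests (two-sided). Scripts were tested on simulated data. The 95% intervals of the families come from the quasi-likelihood fit and include the spread between libraries. The limit given for 0 tags covers counting error only.

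The series' design text ties each replicate number to a surgery day, so the numbers pair libraries. Deviations of same-number libraries correlated at 0.541, 0.173, 0.178 and 0.349 over genes (other numbers -0.261 to 0.162) for replicates 1, 2, 4 and 5. The fit without the block was the main one.

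Named genes were those called, the 10 higher and 10 lower with the smallest p, Slc1a2, Hspa1a, Hspa1b and up to 4 members of each list with the most tags; some of these are not reported here. The groups, gene lists and rules were chosen with earlier results of these data known.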

Additional observations from a re-analysis of the deposited data

Results flagged for a closer look

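Within groups of 4 or 5 libraries, 15 of 140 sets of values had a highest or lowest library far from its group by Dixon's criterion at the 95% level, where chance marks about 1 in 20. Ipsilateral replicate 1 accounted for 4: its 3'UTR share of peak tags was lowest at 22.1%, its CDS share lowest at 5.44%, its intron share highest at 41.4%, and its Glul share lowest at 17.1 tags per 10000. Contralateral replicate 1 was not flagged for region shares, but it too had the lowest 3'UTR share (25.55%) and the highest intron share (36.43%) of its group.

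In ipsilateral replicate 5, Rtn1 was highest at 63.4 and Eef2 lowest at 3.73 tags per 10000. That library has the fewest tags. In contralateral replicate 5, Sptbn1 was highest at 119 and the ATPase list at 236 tags per 10000. In contralateral replicate 4, Tjp1 was highest at 23.7, Grm5 lowest at 3.64, miR-505-5p highest at 4.57 and miR-7036b-5p lowest at 3.05. In contralateral replicate 2, Hspa1a was highest at 0.678, the others being at 0, and miR-6396 highest at 5.14. In ipsilateral replicate 4, miR-379 sites were highest at 1.08% of 3'UTR tags.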

How the results depend on the processing

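Of 1618 alternative values for named features, 1529 kept their direction and their side of the threshold, 72 passed it only in the alternative, 15 lost it and 2 reversed. The reversed ones were the miR-9-5p family at 0.0743 and the miR-495 family at -0.0424, both with matches to bases 2 to 8 followed by A only. In the fit with no block, 0 of 427 genes were called. The count was 9 with DESeq2, 2 with no filter on 3328 genes (Hspa1b and Impact), 5 with the replicate block, 3 with the replicate block on paired libraries only (256 genes: Camk2a, Meg3 and Rtn1), 7 without replicate 1 of all groups, 5 with the replicate block without replicate 1, and 6 with the replicate block and overlapping peaks counted once. Leaving out 1 library gave 0 to 11 genes, 11 without ipsilateral replicate 1 and 0 otherwise. With the replicate block it gave 0 to 11, with 0 without ipsilateral replicate 2, 3 or 5. For families, 1 was called with no block, 0 with TMM scaling, 0 with the longer match, 3 with the replicate block and 0 with the replicate block without replicate 1. Leaving out 1 library gave 0 to 1, and with the replicate block 0 to 7. The miRNAs and region shares had 0 calls under every setting run. The block also changed calls of other genes. With 1 library left out, Meg3 passed in 3 fits with the block and 0 without it, and Ank2 in 0 and 1. Alternatives on overlapping peaks, on which peaks count as exonic (0 genes with or without noncoding exons or part-intron peaks), and on leaving out libraries with the block were chosen after the data were seen. The median peak had 11 tags, and ipsilateral replicates 4 and 5 had the fewest exonic tags. The causes of these differences were not tested.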
